A study of Mus musculus with 32 samples.

Results

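The complement components and regulators described here were C1ra, C1s1, Serping1, C3, C4b, Cfb, Cd55 and Cd59a, 8 genes chosen by name. Of these, 5 had a row in a table of 12451 genes: C1ra, C1s1, Serping1, C4b and Cd59a. No row matched C3, Cfb or Cd55, whose expression was not analysed here. Each gene in the table held counts in at least 4 samples, and why these genes had no row was not tested. The genes were followed in YUMM3.3, a Braf mutant mouse melanoma cell line, by BRB-seq, a bulk RNA-seq method in which each sample receives a barcode before pooling and the 3′ ends of transcripts are counted. The 32 samples were wells of this line in 8 groups of 4, namely untreated cells (NT), cells given 40 ng/ml Activin-A (ActA), cells given 20 ng/ml IFN-γ (IFNg) and cells given both factors (ActA_IFNg), each for 4 and for 12 hrs. All groups shared the same line and medium with fetal bovine serum and held no other cell type by design, so that p-values measure the spread between wells of 1 line.

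Complement is a cascade of plasma proteases and their substrates. In the classical pathway the protease C1r, encoded by C1ra in mice, activates C1s, encoded by C1s1, which cleaves C4, and the product helps to build the enzyme that cleaves C3, while factor B (Cfb) serves the alternative pathway. Serping1 encodes the C1 inhibitor, a serpin that blocks C1r and C1s, and Cd55 and Cd59a encode surface proteins that protect cells from complement. The liver is the main source of the plasma components, but many other cells make some of them. IFN-γ acts through JAK kinases, Activin-A through Smad2 and Smad3, and the comparisons asked how each factor alone, and Activin-A on top of IFN-γ, changed the mRNA of these genes.

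Serping1 was the 1 member with enough reads for the test across all genes, and it was also the 1 member whose transcript had no 50-base stretch in common with another gene. C4b, C1ra and C1s1 each have a near-identical copy in the mouse, so that their counts depend on how reads are divided between both, while Cd59a has a less similar copy that shares no such stretch near the 3′ end. Of the 50-base stretches in the last 500 bases of the transcript, 38.1% were shared with C4a for C4b, 19.1% with C1rb for C1ra, 18.0% with C1s2 for C1s1 and 0% for Cd59a, for which 3.98% over the whole transcript were shared with Cd59b. None of C4a, C1rb, C1s2 and Cd59b matched a row, and the part of C4a, C1rb and C1s2 in the values of the members was not tested. The aligned transcripts were 98.1% identical for C1ra and C1rb, 96.2% for C1s1 and C1s2, 96.2% for C4b and C4a, and 90.1% for Cd59a and Cd59b. To show what the counting has to tell apart, 60 coding bases of C4b are set beside C4a. They end 318 bases before the 3′ end of the transcript. Of the ungapped coding windows of this length in the last 500 bases, none differed from C4a at more bases. The sequences are from the GENCODE transcripts of GRCm38, 5′ to 3′, with the 2 bases that differ in capitals:
C4b: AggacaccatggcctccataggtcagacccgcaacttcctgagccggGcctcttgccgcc
C4a: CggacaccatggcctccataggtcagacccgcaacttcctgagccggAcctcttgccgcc
The last 60 coding bases of Serping1 lie 187 bases before the end of its transcript, in the part that 3′ counting reads, and are shown for comparison with the stop codon in capitals:
Serping1: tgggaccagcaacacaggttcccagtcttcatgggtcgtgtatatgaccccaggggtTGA
In GRCm38, Serping1 (ENSMUSG00000023224) lies at chr2:84765387-84775444 on the minus strand and C4b (ENSMUSG00000073418) at chr17:34728380-34743882 on the minus strand. C1ra (ENSMUSG00000055172) at chr6:124512405-124523443 on the plus strand and C1s1 (ENSMUSG00000038521) at chr6:124530345-124542359 on the minus strand are neighbours, and Cd59a (ENSMUSG00000032679) lies at chr2:104095801-104115354 on the plus strand. These positions are those of the annotation and not of the build named for the table, GRCm39.

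Totals ranged from 654539 to 1455074 counts per well, and levels are given in CPM (counts per 1000000). The floor for folds was 3 counts summed over the 4 wells of a group, which stands for 0.681 to 0.849 CPM. Folds against this floor, and ratios with a counting interval, use counts summed over a group and divided by its summed TMM-normalized totals. They can therefore differ from ratios of raw sums or of mean CPM. Counting intervals given here cover counting error only. Folds against the floor put 3 counts in place of 0 and take the sum of the other group as exact, so that they are not lower limits. The treatments were visible in known targets. At 4 hrs Irf1 rose with IFN-γ by 4.22 on the log2 scale, and Pmepa1 rose with Activin-A by 2.55. At 12 hrs these changes were 3.96 and 1.87. Skil, like Pmepa1 a known Smad target, was called for Activin-A at 4 hrs (0.79, edgeR adjusted p = 0.0411) but not at 12 hrs (0.78, edgeR adjusted p = 0.0988). Pmepa1 at 12 hrs was lower with both factors than with Activin-A (-1.24, edgeR adjusted p = 2.13e-12). All 8 melanocyte lineage markers had a row, with a summed level of 335 to 474 CPM. No endothelial, epithelial or hepatocyte marker had a row, 4 of 8 leukocyte markers were listed at 8.60 to 26.5 CPM in sum, and 4 of 5 fibroblast markers at 40.1 to 85.9 CPM. The summed fibroblast markers moved with treatment at 12 hrs, from 56.8 to 71.8 CPM in untreated cells to 48.0 to 54.4 CPM with IFN-γ and 40.1 to 49.9 CPM with both factors. With Activin-A at 12 hrs they were at 63.5 to 84.8 CPM, a range that overlapped with untreated cells and lay above that with both factors. The part of these markers in the results at 12 hrs was not tested. Of all libraries, well 1 with Activin-A at 4 hrs stood furthest from its group: its 3 pairs with the other wells differed by a chi-square per gene of 2.45 to 2.89, against 1.16 to 1.54 in the other 45 pairs. It was also the deepest well.

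Serping1 was strongly upregulated by IFN-γ, and more so after 12 than after 4 hrs. At 4 hrs its level was 20.2, 22.1, 9.88 and 17.0 CPM in the untreated wells and 75.9, 92.4, 75.0 and 83.1 CPM in the IFN-γ wells. Every IFN-γ well thus lay above every untreated well. The log2 fold change was 2.23 (SE 0.199, edgeR adjusted p = 7.86e-14), which is 4.70-fold. At 12 hrs the untreated wells gave 6.185, 8.96, 13.2 and 16.4 CPM and the IFN-γ wells 211, 221, 207 and 226 CPM, again with a wide gap between the groups. Here the log2 fold change was 4.34 (SE 0.154, edgeR adjusted p = 2.36e-46), or 20.3-fold. The difference between the effects at both times was itself tested and was 2.12 on the log2 scale (SE 0.318, edgeR adjusted p = 1.91e-06). In untreated cells the change from 4 to 12 hrs was -0.73 (SE 0.294, edgeR adjusted p = 0.152). For scale, 5.06% of 9137 genes tested at 4 hrs and 9.25% of 8971 genes tested at 12 hrs passed the threshold of an adjusted p under 0.05 for IFN-γ. For the difference of the effects 0.579% of 9332 genes passed, and for untreated cells at 12 against 4 hrs 4.9%.

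**Figure D1:**
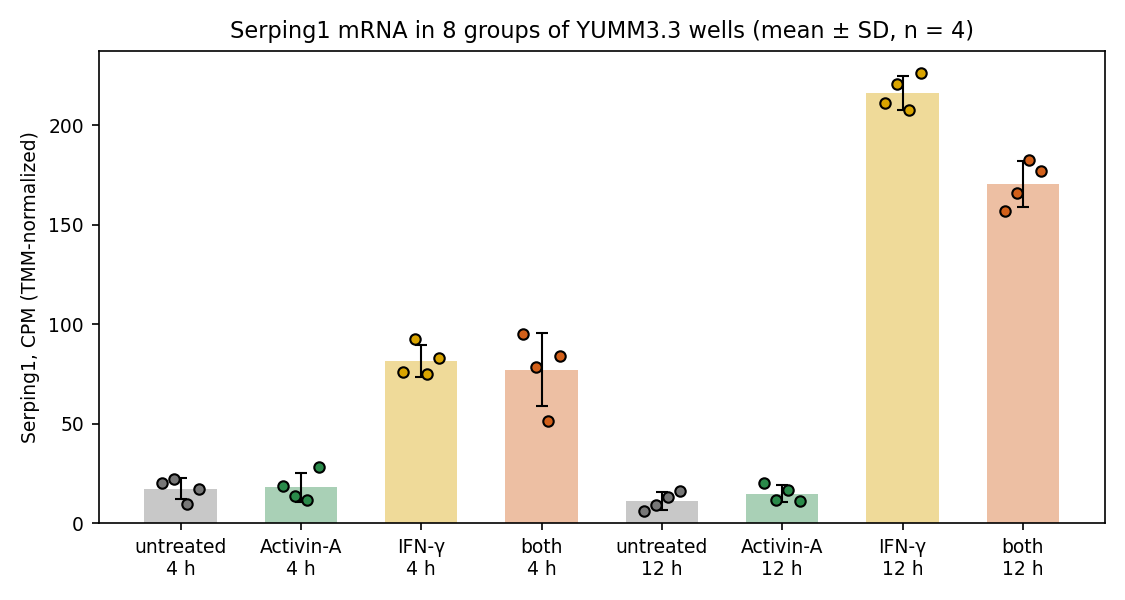
Serping1 mRNA in CPM (TMM-normalized) on a linear axis from 0, for the 8 groups of treatment and time; points are wells, bars the mean of 4 wells and error bars the SD. The 4 groups without IFN-γ lie between 6.185 and 28.1 CPM, and the 4 groups with IFN-γ between 51.4 and 226 CPM.

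No change of Serping1 with Activin-A alone passed the test. The 4 wells at 4 hrs gave 18.5, 13.8, 11.5 and 28.1 CPM and those at 12 hrs 20.1, 11.6, 16.6 and 11.2 CPM, and both sets overlapped with untreated wells of the same time. The log2 fold changes were 0.07 (SE 0.266, edgeR adjusted p = 0.961) at 4 hrs and 0.52 (SE 0.280, edgeR adjusted p = 0.483) at 12 hrs. The 95% interval at 12 hrs ran from -0.02 to 1.07. Without well 1 of Activin-A at 4 hrs the log2 fold change at that time was 0.06 (edgeR adjusted p = 0.981). Between 12 and 4 hrs the effect of Activin-A differed by 0.46 (SE 0.398, edgeR adjusted p = 0.920). Of all genes tested, 1.64% were called for Activin-A at 4 hrs and 2.41% at 12 hrs, and for the difference of these effects 0.0214%.

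Compared with IFN-γ alone, no difference of Serping1 with both factors passed the test at 4 hrs, and at 12 hrs it was lower by a small amount. At 4 hrs the wells with both factors gave 94.9, 78.6, 51.4 and 83.9 CPM, a range that encloses all 4 IFN-γ wells. The log2 fold change against IFN-γ was -0.10 (SE 0.147, 95% interval -0.39 to 0.18, edgeR adjusted p = 0.906). At 12 hrs they gave 157, 166, 182.5 and 177 CPM, all of them below the lowest IFN-γ well at 207 CPM. The log2 fold change was -0.35 (SE 0.0903, edgeR adjusted p = 0.0282), so that the level with both factors was 0.787 times that with IFN-γ. This call did not hold in every analysis: the adjusted p was 0.183 with DESeq2 and 0.115 in a fit of all 32 wells, and with 1 well left out it ranged from 0.0368 to 0.140 and passed in 2 of 8 fits, those without well 3 of either group. The direction was the same in each of these. Of all genes, 0.81% at 4 hrs and 1.03% at 12 hrs were called for both factors against IFN-γ. The effect of Activin-A under IFN-γ at 12 hrs differed from that at 4 hrs by -0.24 (SE 0.173, edgeR adjusted p = 0.862), a contrast in which 0.0964% of genes were called.

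Serping1 also rose with both factors against Activin-A alone and against untreated cells. Against Activin-A the log2 fold change was 2.06 (SE 0.193, edgeR adjusted p = 4.78e-13) at 4 hrs and 3.47 (SE 0.153, edgeR adjusted p = 1.77e-38) at 12 hrs. Against untreated cells it was 2.13 (SE 0.198, edgeR adjusted p = 3.94e-13) and 4.00 (SE 0.164, edgeR adjusted p = 5.48e-41). Without well 1 of Activin-A at 4 hrs the first of these values was 2.07 (edgeR adjusted p = 9.49e-14). These comparisons share wells and do not count as separate evidence. At 4 and 12 hrs, 6.07% and 9.62% of all genes were called against Activin-A, and 7.29% and 9.84% against untreated cells. In edgeR's fit the interaction, that is the effect of Activin-A with IFN-γ minus its effect without, was -0.17 (SE 0.305, edgeR adjusted p = 0.983) at 4 hrs. At 12 hrs it was -0.87 (SE 0.294, edgeR adjusted p = 0.395), below 0 but not past the threshold over all genes. At 4 hrs 0% and at 12 hrs 0.0111% of genes were called for the interaction.

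**Figure D2:**
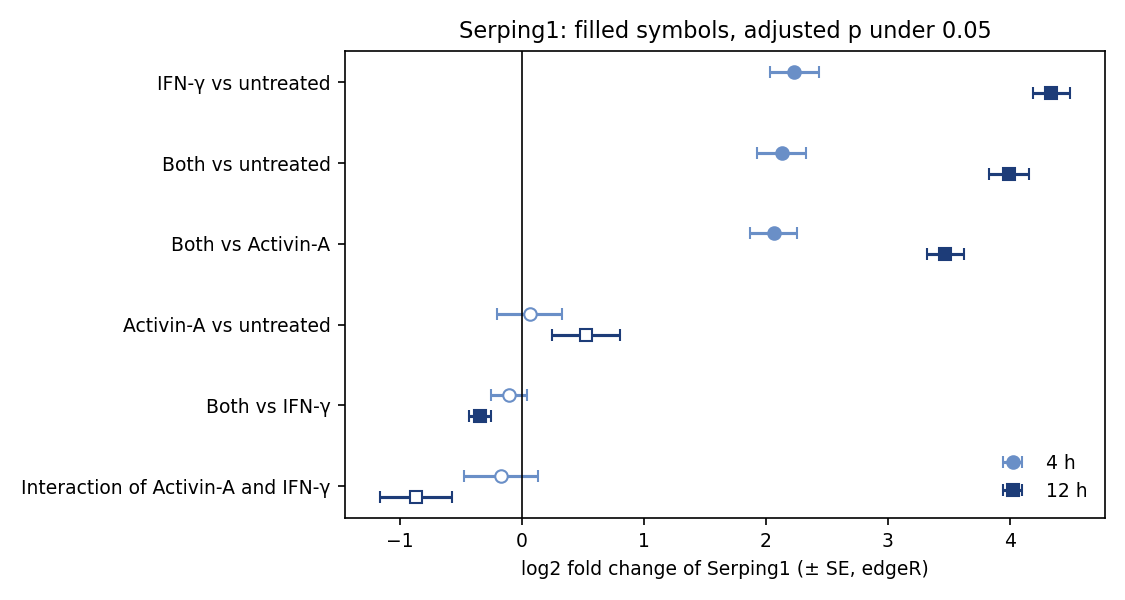
Log2 fold changes of Serping1 with their SE (x axis) for 6 contrasts (y axis) at 4 hrs (circles) and 12 hrs (squares); filled symbols have an adjusted p under 0.05 by edgeR. The 3 contrasts of a group with IFN-γ against one without lie between 2.06 and 4.34, Activin-A against untreated cells and both against IFN-γ between -0.35 and 0.52, and the interaction at -0.17 and -0.87.

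Ordered by mean level, Serping1 was highest with IFN-γ at 12 hrs, at 216 ± 8.59 CPM (SD, n = 4), followed by both factors at 12 hrs, at 171 ± 11.5 CPM, and these neighbours did not overlap. Next came IFN-γ at 4 hrs with 81.6 ± 8.08 CPM and both factors at 4 hrs with 77.2 ± 18.5 CPM, which overlapped. A gap without overlap followed, from 51.4 to 28.1 CPM. The remaining groups, Activin-A at 4 hrs with 18.0 ± 7.38 CPM, untreated cells at 4 hrs with 17.3 ± 5.385 CPM, Activin-A at 12 hrs with 14.9 ± 4.26 CPM and untreated cells at 12 hrs with 11.2 ± 4.51 CPM, each overlapped with the next of these in the order. Among 9331 other genes, the levels most like those of Serping1 over the 32 wells belonged to H2-T23, which encodes a non-classical MHC class I molecule (Pearson r = 0.980), Tapbp, which encodes tapasin of the peptide loading complex (r = 0.975), and Psme1, which encodes a subunit of the proteasome activator PA28 (r = 0.972). These correlations describe wells that share their treatments, and they carry no test.

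C4b, whose product is the substrate of C1s, was detected with IFN-γ and hardly without it. The 8 untreated wells held 0 counts at both times. Of the 8 wells with Activin-A alone, 1 well at 12 hrs held 1 count and the others 0. With IFN-γ the wells held 1, 7, 2 and 4 counts at 4 hrs and 4, 7, 9 and 8 counts at 12 hrs, so that each IFN-γ well held at least 1 count. With both factors they held 3, 3, 0 and 0 counts at 4 hrs and 14, 6, 8 and 7 counts at 12 hrs. C4b counts were therefore found in 14 of the 16 wells given IFN-γ. Each gene in the table held counts in at least 4 wells, and C4b met this only through wells given IFN-γ. Its presence in the table, and so its tests below, depended on these wells.

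**Figure D3:**
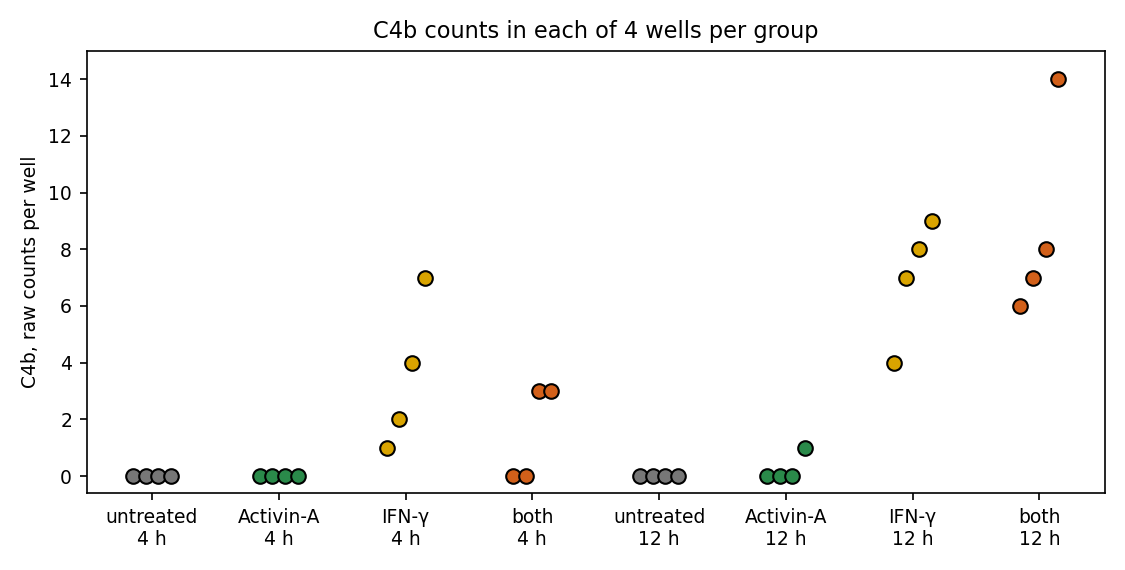
Raw C4b counts per well (y axis, linear) in the 8 groups of treatment and time, 1 point per well. Untreated wells lie at 0, wells with IFN-γ at 4 to 9 counts and wells with both factors at 6 to 14 counts at 12 hrs.

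In CPM, C4b averaged 3.42 with IFN-γ at 4 hrs and 7.14 at 12 hrs, and 1.43 and 9.90 with both factors. The next folds are from summed counts scaled to normalized totals, not from these means. Against the floor of 3 counts over the 4 untreated wells, IFN-γ wells gave a fold of 5.01 at 4 hrs and of 9.96 at 12 hrs. Wells with both factors gave a fold of 13.8 at 12 hrs. C4b was too low for the filter on low counts, and it was tested in the same edgeR fit without that filter. There the call was made for IFN-γ against untreated cells at 4 hrs (edgeR adjusted p = 0.00457) and at 12 hrs (edgeR adjusted p = 2.32e-07). It was made for both factors at 12 hrs, against untreated cells (edgeR adjusted p = 9.31e-10) and against Activin-A (edgeR adjusted p = 3.89e-08). In the latter comparison the sums were 35 and 1 counts. Their ratio, scaled to the normalized totals of the groups, was 40.1 with a 95% counting interval of 6.75 to 1630. At 4 hrs, with 6 counts in 2 of the 4 wells, the calls for both factors were not made (edgeR adjusted p = 0.154 against untreated cells and 0.151 against Activin-A). The call for IFN-γ at 4 hrs was lost with DESeq2 (adjusted p = 0.0656) and without well 2 of the IFN-γ group, which held 7 of its 14 counts (edgeR adjusted p = 0.0592). In a two-sided exact permutation test of the CPM of 4 against 4 wells, the comparisons called by edgeR each gave p = 0.0286, the smallest value that 70 divisions can give, and 0.0714 after adjustment over 10 comparisons.

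No effect of Activin-A on C4b under IFN-γ passed the test. The ratio of both factors to IFN-γ was 0.382 at 4 hrs, with a 95% counting interval of 0.120 to 1.06, and 1.38 at 12 hrs, with an interval of 0.817 to 2.36. The fit without the filter gave adjusted p-values of 0.685 and 0.823 by edgeR, and the wells overlapped at both times. The counts thus allow a lower as well as an equal level at 4 hrs, and at 12 hrs up to 2.36 times the level with IFN-γ.

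C1s1, which encodes the protease that cleaves C4, stayed at 0 to 3 counts per well. At 12 hrs all 4 untreated wells and all 4 Activin-A wells held 0 counts, the IFN-γ wells 0, 2, 0 and 2 and the wells with both factors 1, 3, 1 and 2. Each well with both factors was therefore above those without IFN-γ, by 1 to 3 counts. Against the floor of 3 counts over 4 wells, the 7 counts with both factors at 12 hrs gave folds of 2.75 over untreated cells and 2.67 over Activin-A. The fit without the filter called both (edgeR adjusted p = 0.0464 and 0.0499). These calls were lost with the replicate number as a block (adjusted p = 0.115 and 0.123), with only the groups compared in the fit (0.0518 and 0.0604), and with 1 well left out in 6 of 8 and 8 of 8 fits (0.0906 to 0.167 and 0.0517 to 0.167 in those fits), and the second also with RLE normalization (0.0509). DESeq2 gave no adjusted p for either. For IFN-γ alone at 12 hrs the adjusted p was 0.244 by edgeR. At 4 hrs the untreated wells held 0, 1, 0 and 1 counts, those with Activin-A 1, 0, 0 and 2, those with IFN-γ 1, 2, 1 and 3 and those with both 1, 2, 0 and 0.

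C1ra, which encodes the protease that activates C1s, was found at 0 to 5 counts in every group, without a call in any of the 10 comparisons between groups of the same time. At 4 hrs the sums over 4 wells were 3 counts in untreated cells, 11 in cells given Activin-A, 4 in those given IFN-γ and 9 where both were given. At 12 hrs they were 11, 7, 5 and 7 in the same order. Scaled to normalized totals, the ratio of Activin-A to untreated cells at 4 hrs was 3.40, with a counting interval of 0.899 to 19.0. The adjusted p of this comparison was 0.541 by edgeR without the filter.

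Cd59a, which encodes an inhibitor of the membrane attack complex, was found at 0 to 4 counts and was not called in any of the 10 comparisons either. The fewest counts were in IFN-γ wells at 12 hrs, with 0, 0, 0 and 1. The wells with both factors at 12 hrs held 2, 0, 2 and 4 counts, so that the sums were 8 counts with both factors and 1 count with IFN-γ. Scaled to normalized totals, the ratio of these sums was 8.85. Its 95% counting interval of 1.19 to 393 covers no spread between wells, and the adjusted p was 0.402 by edgeR without the filter. The wells of these groups overlapped.

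**Figure D4:**
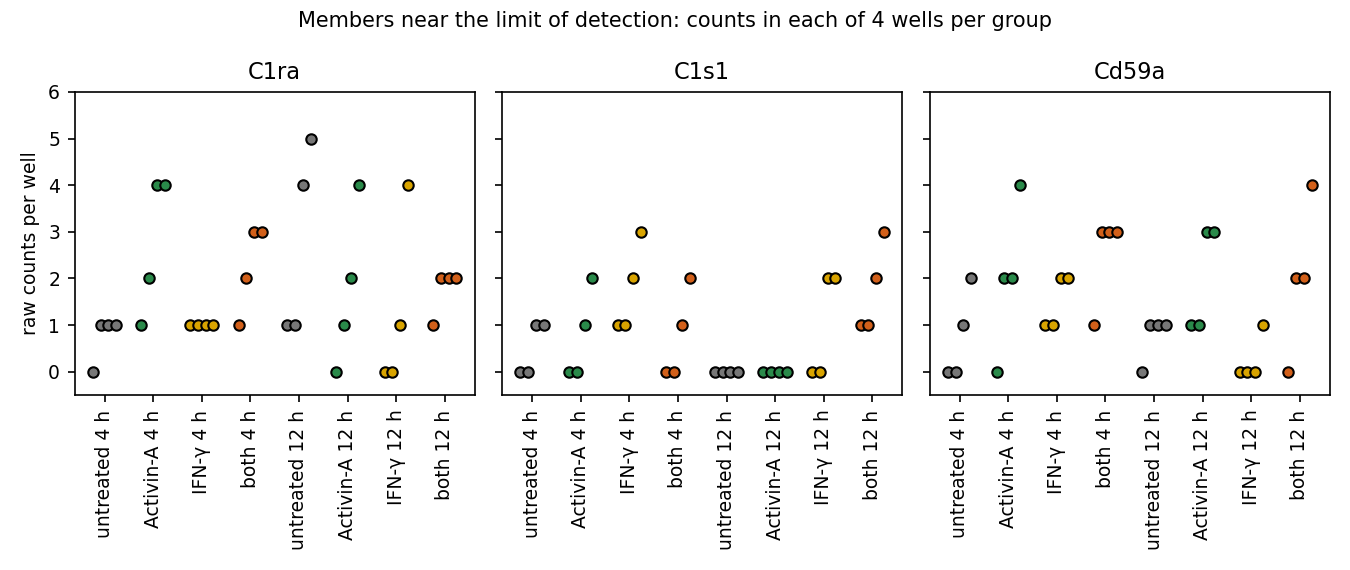
Raw counts per well (y axis, linear) of C1ra, C1s1 and Cd59a in the 8 groups of treatment and time, 1 point per well. All points lie between 0 and 5 counts, and C1s1 is at 0 in the 8 wells without IFN-γ at 12 hrs.

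Without the filter, the calls among the 5 listed members were thus 2 for IFN-γ at 4 hrs and 2 at 12 hrs (Serping1 and C4b). There was 1 for both factors at 4 hrs (Serping1) against either control. At 12 hrs there were 3 (Serping1, C4b and C1s1) against either control. For both factors against IFN-γ there were 0 at 4 hrs and 1 at 12 hrs (Serping1), and for Activin-A alone 0. Over all genes in that fit, 3.8% and 6.88% were called for IFN-γ at 4 and 12 hrs, 1.36% and 1.88% for Activin-A, 0.651% and 0.811% for both factors against IFN-γ, 4.64% and 7.24% for both against Activin-A, and 5.63% and 7.3% for both against untreated cells. At 12 hrs DESeq2 called 2 members (Serping1 and C4b) for IFN-γ, for both factors against Activin-A and for both against untreated cells, in comparisons that called 4.53%, 4.42% and 4.65% of 12448 genes, and 0 members for both factors against IFN-γ, where 0.434% were called. The 12448 genes include those to which DESeq2 gave no adjusted p.

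The other genes of the complement system were counted from a list of 49, of which 18 had a row and 9 passed the filter on low counts: C1qbp, Cfp, Masp1, Colec12, Cr1l, Clu, Thbd, Cd93 and Calr. The log2 fold changes of those called between groups of the same time lay between -0.55 and 0.31. With IFN-γ at 4 hrs 0 of 9 were called, against 5.06% of all genes. At 12 hrs 4 of 9 were called, against 9.25%, 1 higher and 3 lower. The median log2 fold change over the list was then -0.14, against -0.01 over all genes tested. The count at 12 hrs ranged from 2 to 4 with 1 well left out, and from 2 to 4 over the alternative analyses. Clu encodes clusterin, a secreted chaperone that binds the terminal complement complex. It fell with IFN-γ at 12 hrs from 572 ± 26.7 to 468 ± 28.2 CPM (SD, n = 4 wells; log2 fold change -0.29, edgeR adjusted p = 0.000181), and all IFN-γ wells lay below the untreated ones. It also fell with Activin-A at 12 hrs, to 450 ± 33.7 CPM (log2 fold change -0.36, edgeR adjusted p = 1.95e-05), and with both factors, to 418 ± 17.4 CPM (-0.45, edgeR adjusted p = 7.15e-09).

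Cd93, which encodes a surface glycoprotein first described as a C1q receptor, fell with IFN-γ at 12 hrs from 380 ± 15.7 to 306 ± 25.1 CPM (log2 fold change -0.31, edgeR adjusted p = 7.00e-04), without overlap. With Activin-A alone at 12 hrs Cd93 was at 325 ± 31.1 CPM, below all untreated wells but not called (-0.22, edgeR adjusted p = 0.0683). Both factors against IFN-γ at 12 hrs gave no call either (-0.24, edgeR adjusted p = 0.122). With both factors Cd93 was at 259 ± 14.2 CPM at 12 hrs, lower than in untreated cells by 0.55 on the log2 scale (edgeR adjusted p = 2.08e-09) and lower than with Activin-A (-0.32, edgeR adjusted p = 8.70e-04). At 4 hrs, too, it was lower with both factors than in untreated cells (-0.31, edgeR adjusted p = 0.00448) and than with Activin-A (-0.31, edgeR adjusted p = 0.00457, and 0.00871 without well 1 of Activin-A). Thbd, which encodes thrombomodulin, a cofactor of thrombin that also promotes the inactivation of complement C3b, fell with Activin-A at 4 hrs from 154 ± 10.4 to 115 ± 6.30 CPM (log2 fold change -0.43, edgeR adjusted p = 0.00839, and 0.0163 without well 1 of Activin-A). It rose with IFN-γ at 12 hrs from 188 ± 17.9 to 235 ± 12.1 CPM (0.31, edgeR adjusted p = 0.00674), a call lost with DESeq2 (adjusted p = 0.0509) and without well 3 of the untreated group (0.0552). It was higher with both factors than with Activin-A at 12 hrs (0.28, edgeR adjusted p = 0.0267), a call lost with DESeq2 (adjusted p = 0.138) and when any of 5 wells was left out, those of Activin-A wells 1 and 3 and of wells 1, 2 and 3 with both factors (adjusted p up to 0.194). C1qbp, which encodes a mitochondrial protein that can bind the globular heads of C1q, fell with IFN-γ at 12 hrs from 651 ± 18.6 to 576 ± 29.0 CPM (-0.18, edgeR adjusted p = 0.0375). This was lost with DESeq2 (0.0545) and without untreated wells 2, 3 or 4 or IFN-γ wells 2 or 3 (adjusted p 0.0506 to 0.144).

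In the remaining comparisons of the list 0 of 9 were called for both factors against IFN-γ at either time, against 0.81% and 1.03% of all genes at 4 and 12 hrs. In untreated cells 2 of 9 were higher at 12 than at 4 hrs, in a comparison that called 4.9% of all genes. These were Thbd (0.29, edgeR adjusted p = 0.0445) and Masp1, a lectin pathway protease gene named here after its values were seen, which rose from 28.3 ± 4.43 to 50.1 ± 11.2 CPM (0.83, edgeR adjusted p = 6.10e-04). The call of Thbd was lost with DESeq2 (adjusted p = 0.102), with the replicate block (0.0529) and with any of 7 wells left out (up to 0.209).

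**Figure D5:**
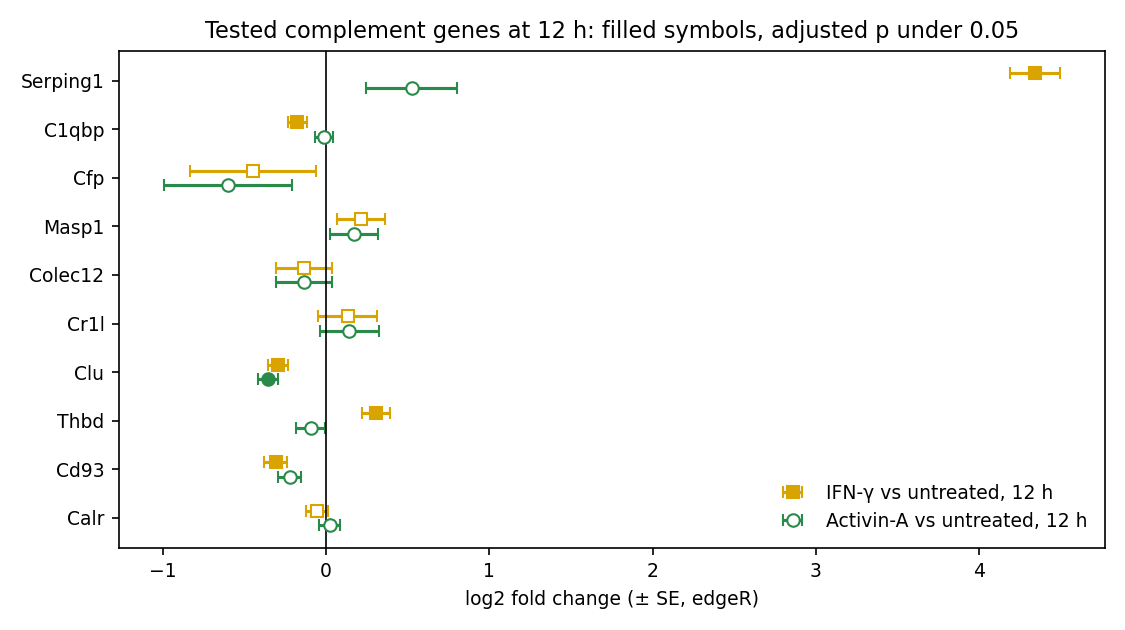
Log2 fold changes with their SE (x axis) at 12 hrs for Serping1 and the 9 other complement genes tested (y axis), with IFN-γ (squares) and Activin-A (circles) against untreated cells; filled symbols have an adjusted p under 0.05 by edgeR. Serping1 lies at 4.34 with IFN-γ, and the called changes of the other genes lie between -0.36 and 0.31.

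For the promoters, RefSeq's windows of GRCm38.p6 from 250 bases before to 50 bases after the start held entries for 5 of the 8 members: C1ra, C1s1, C3, Cd55 and Cd59a. Serping1, C4b and Cfb had no entry. The windows were searched on both strands for 6 motifs. A GAS motif (TTCNNNGAA) was found in the window of C1ra, and 8.30% of 32851 promoter windows held it. An ISRE core (GAAANNGAA) was found for Cd59a and is held by 8.56% of windows. A C/EBP motif (TTGCNNAA) was found for C1ra, C3 and 1 of 2 windows of C1s1, and by 10.8% of all. No window of the 5 held NF-kB (GGGANTTTC, 1.11% of windows), AP-1 (TGANTCA, 7.81%) or Smad (GTCTAGAC, 0.213%) letters. A match describes letters and not a site in use.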

How the data were processed

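YUMM3.3 wells were measured by BRB-seq. The values the authors deposited are raw gene-level counts, not normalized; the submitters' processing notes name STAR 2.7.10b, featureCounts, DESeq2 1.36.0 and GRCm39 (mm39), without roles. The gene annotation, the strand setting, the treatment of reads shared between genes and the handling of unique molecular identifiers are not given in the sources used here. Of 12451 identifiers, 12437 matched a symbol in GENCODE M21 (GRCm38) and 14 did not (0.0339% of counts). Members and lists were chosen with earlier results of these data known: the 8 members by name, the other complement genes when called in a comparison between groups of one time.

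R 4.3.3 with edgeR 4.0.16 was used (filterByExpr, TMM, quasi-likelihood test, Benjamini-Hochberg adjustment), over the 16 wells of a time or all 32 for contrasts of times. The study's methods used DESeq2, which was an alternative here (1.42.0). SE is the log2 fold change over the root of F. CPM are counts over TMM-normalized totals, except marker sums, which use raw totals; likeness used log2 CPM with a prior count of 2. The other alternatives were RLE normalization, no filter, at least 10 counts in every sample, a replicate block, other sets of samples, an adjusted p under 0.01, a prior count of 0.5 and each well left out. Fits of C4b and C1s1 without the filter under these settings were chosen after seeing the data. The fit was tested on simulated data for IFN-γ against untreated cells: of genes changed 1.5-fold, 53 of 67 were recovered at 4 hrs (9064 genes) and 52 of 67 at 12 hrs (8920 genes), and of those changed 2-fold 67 of 67 and 66 of 67. Over all fold sizes, 8 unchanged genes were called at 4 hrs and 12 at 12 hrs. Only genes with mean counts above those of C4b, C1s1, C1ra and Cd59a were changed, with a common spread for all genes and the filter on low counts. The simulation therefore does not cover these 4 members or the fits without the filter. Wells of a group differed by more than counting error. The dose of Activin-A printed is that of the labels and methods; legends of the study give a higher one.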

Additional observations from a re-analysis of the deposited data

Results flagged for a closer look

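Serping1 was flagged because its response to IFN-γ differed between the times: the effect at 12 hrs exceeded that at 4 hrs by 2.12 on the log2 scale (SE 0.318, edgeR adjusted p = 1.91e-06). All 4 wells of IFN-γ were above all untreated wells at each time.

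C1ra was flagged because 1 of the 4 wells with both factors at 12 hrs, at 1.165 CPM, lay far from the other three. That well held 1 count and the others 2 counts each, a gap of 1 count. Chance flags about 5% of groups of continuous normal values, a rate that need not hold for counts this low. In all, 27 groups of members were examined.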

How the results depend on the processing

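The rise of Serping1 with IFN-γ against untreated cells kept its direction and its call in 8 of 8 fits with 1 well left out at each time, with log2 fold changes of 2.06 to 2.37 at 4 hrs and 4.10 to 4.56 at 12 hrs. It kept them with DESeq2, RLE normalization, no filter, the replicate block, the groups compared alone, all 32 samples and an adjusted p under 0.01, at 2.22 to 2.23 at 4 hrs and 4.33 to 4.35 at 12 hrs. Counts of members called moved as follows. With at least 10 counts in every sample Serping1 itself is not tested, since its lowest wells held 8 and 9 counts, so that 0 members were called where 1 had been. Without the filter, 2 members were called for IFN-γ at 4 hrs and 2 at 12 hrs, and 3 for both factors at 12 hrs against Activin-A and against untreated cells. DESeq2 called 2 in each of these comparisons at 12 hrs. For both factors against IFN-γ at 12 hrs, 0 were called with DESeq2, with all 32 samples and with an adjusted p under 0.01, and 0 to 1 with 1 well left out. The causes were not tested.

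The values of Serping1 that changed sign had not passed a test. Activin-A at 4 hrs gave -0.10 without untreated well 3 and -0.22 without Activin-A well 4 (range with 1 well left out -0.22 to 0.24). Both factors against IFN-γ at 4 hrs gave 0.0489 without well 3 with both factors (range -0.20 to 0.0489), and the interaction at 4 hrs 0.0031 and 0.11 without those untreated and Activin-A wells (range -0.35 to 0.11). Same-numbered wells did not deviate together (mean r -0.00085 over 112 pairs, and 6 of 32 wells were most like one of their own number), so that the numbers do not pair the wells. With the replicate block, Serping1 gave 2.22 at 4 hrs and 4.33 at 12 hrs for IFN-γ and -0.34 (adjusted p = 0.0303) for both factors against IFN-γ at 12 hrs by edgeR. The calls of C4b at 12 hrs held with the block. The block ended the calls of C1s1 and of Thbd in untreated cells over time. Low counts limit the results for C4b, C1s1, C1ra and Cd59a, whose largest counts per well were 14, 3, 5 and 4. The cause of these low counts was not tested.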
